A study of Mus musculus with 2 samples.

Results

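Complement is a cascade of plasma proteins, assembled partly from locally made components, that tags microbes and dying cells for uptake. The classical pathway starts when C1q binds antibody or a damaged surface, and the alternative pathway is an amplification loop in which C3b, factor B and properdin build an enzyme that cleaves more C3. Tissue macrophages are a main source of C1q, they can make C3, factor B and properdin, and they sense the C3a fragment through the receptor C3aR. The genes described here are 7 complement genes of macrophages, 7 of the 16219 entries of the deposited table: the C1q chains C1qa, C1qb and C1qc, the alternative pathway genes C3, Cfb and Cfp, and the receptor gene C3ar1. They were taken by gene symbol, all 7 had an entry, and all 7 passed the abundance filter of a mean of at least 1 CPM (count per 1000000 counts of the library), as did 11662 genes in all.

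The values came from cultured bone marrow-derived macrophages of C57BL/6J mice, grown for 5 days in medium with 10% serum and 10% L929 cell supernatant, a source of macrophage colony stimulating factor. Both cultures received 10 ng/ml lipopolysaccharide (LPS), a bacterial cell wall component, for 3 h. The WT library carried Lyz2-Cre, a recombinase driven by a myeloid promoter, and the TKO library carried the same Cre with 3 microRNA clusters targeted. In TKO, mir-17~92 was flox/flox, to be removed by Lyz2-Cre in myeloid cells, while mir-106b~25 and the X-linked cluster mir-106a~363 were each -/-. Polyadenylated RNA was sequenced in 1 library per genotype, with 10764519 counts for WT and 10836855 for TKO. The series holds no unstimulated library, so no response to LPS can be read. With 1 library per genotype there is no spread between replicates and no test of genotype, and "higher" or "lower" compares these libraries. Each fold below is a TKO against WT ratio of CPM with its 95% counting interval (exact Clopper-Pearson), which covers counting error only. It leaves out differences between cultures and animals. It is too narrow where amplified reads are not independent molecules.

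The cells carried the transcripts of their labelled type. All 10 macrophage markers were measured, 0 of them 1.5-fold apart, and their summed level was 7382 CPM in WT and 7543 CPM in TKO, with Csf1r and Cd14 the most abundant. The summed levels of 7 neutrophil, 7 dendritic cell, 4 B cell, 1 T and NK cell and 1 mast cell marker with entries lay between 0 and 13.3 CPM. Of these markers the most abundant was Xcr1 (84 and 90 counts). S100a9 was lower in TKO, at 21 and 8 counts, and Ly6g, Clec9a and Ms4a2 were at 0 counts in WT and Cd209a in TKO. Fibroblast and stromal markers stood apart: their summed level was 397 CPM in WT and 155 CPM in TKO. Col1a1 (191 and 50.8 CPM) and Col1a2 (108 and 39.5 CPM) made up most of it. Of the 8, 7 were measured and 5 were at least 1.5-fold lower in TKO (Col1a1, Col1a2, Col3a1, Postn and Dcn). With a counting interval excluding equality, as these 5 had, 5.26% of all measured genes were lower by that fold. Pdgfrb (478 and 510 counts) and Pdgfra (32 and 30 counts) were not 1.5-fold apart, and Lum had 2 and 1 counts. In bulk RNA, fewer cells of a type and less RNA per cell cannot be told apart.

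By their labels the genotypes differ in the targeted microRNA clusters. The microRNAs of these clusters fall into 4 families by seed, the bases 2 to 8 that pair with a target. Loss of the floxed cluster and other sequence differences between the libraries were not examined. The first member of each family is shown 5′ to 3′, from RefSeq (GRCm38.p6), with the seed in capitals.
miR-17-5p: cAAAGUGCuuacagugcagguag
miR-18a-5p: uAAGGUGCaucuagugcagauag
miR-19a-3p: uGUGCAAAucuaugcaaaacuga
miR-92a-3p: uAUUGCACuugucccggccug
The 3 clusters encode 13 distinct mature microRNAs with these seeds, 6 of them in the miR-17 family. Among the longest annotated 3′ untranslated regions (GENCODE M21) of the 7 complement genes, 2 held a match to a seed, and the region around each is shown with the match in capitals.
C1qa: gtttctttaaGCACTTTctggaataaa
C3ar1: actacaccatGTGCAATgaataacttt
The C1qa match is to the miR-17 family, at bases 199 to 205 of a region of 237 bases. The C3ar1 match is to the miR-92 family, at bases 284 to 290 of 2685. No match was found in C3 (43 bases), Cfb (195 bases), Cfp (140 bases), C1qb (160 bases) or C1qc (239 bases). Of 10869 measured genes with an annotated region, 34.3% held at least 1 match to any of the 4 families, 15.0% to the miR-17 family and 7.69% to the miR-92 family, and their median region length was 1221 bases. The genes with a match, C1qa and C3ar1, lay at log2 ratios of 0.01 and −0.04. C3, the member farthest from equality, had none in its 43 bases, a region far shorter than that median. Whether the microRNAs act on any member was not tested. A match of 7 letters describes the sequence and does not show that the microRNA acts on it.

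C3 was the member that differed most between the libraries, and it was higher in TKO. Of the 7 genes, 1 was at least 1.5-fold higher with a counting interval excluding equality and 0 were lower, where 2.83% of all measured genes were higher by that rule and 5.26% lower. Above a mean of 10 CPM, a range that includes all 7, the shares were 2.12% and 3.11%. By a 2-fold rule 0 of the 7 were called, against 1.02% of measured genes higher and 1.68% lower. The median log2 ratio of the 7 was −0.04, equal to 2 decimals to the median of all measured genes (−0.04). Counting intervals excluded equality for 5 of the 7, as they did for 34.3% of all measured genes and 42% of those of at least 10 CPM. The 7 had means of 98.2 to 1115 CPM, and intervals narrow with more counts, so these shares are not matched for abundance. Apart from C3 none of the log2 ratios exceeded 0.26 in size.

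**Figure D1:**
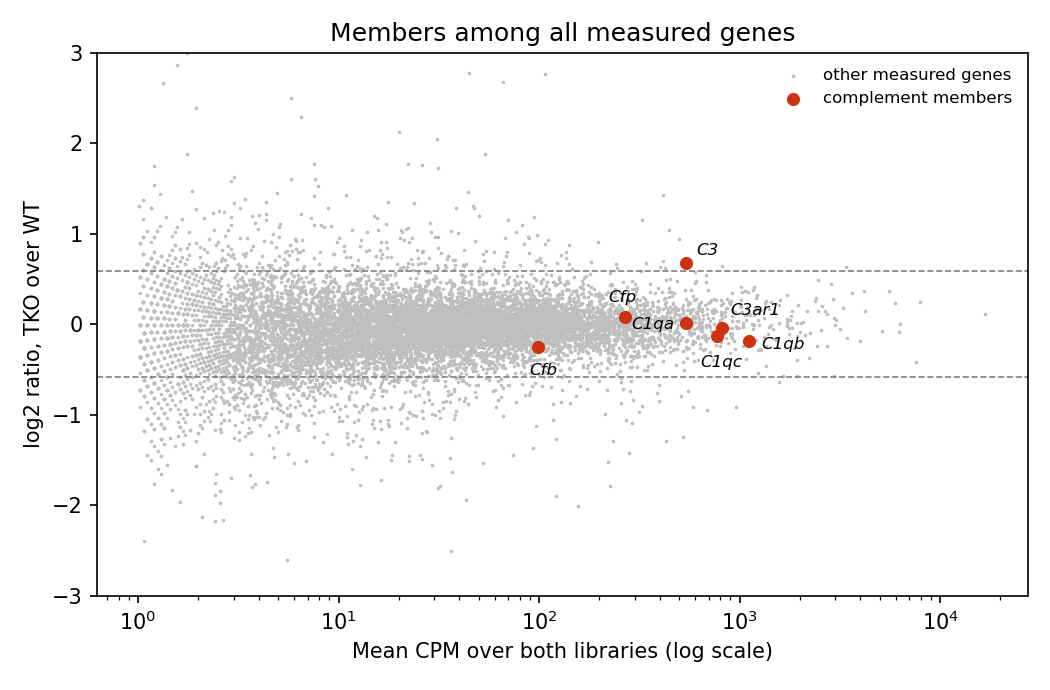
The log2 ratio of TKO over WT (vertical axis) is plotted against the mean CPM over both libraries (horizontal axis, log scale) for all measured genes (grey) and the 7 complement genes (red), with dashed lines at 1.5-fold. C3 lies above the upper line and the other 6 lie between the lines. A further 19 genes have log2 ratios above 3 in size and are not shown.

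By level per transcript length (FPKM, the authors' values), the 7 genes kept the order C1qb, C1qc, C1qa, C3ar1, Cfp, C3, Cfb in both libraries. C1qb ranked 39th of the 11662 measured genes in WT and 46th in TKO, so the C1q chains were among the most abundant messages of these cells. Cfb, the lowest member, ranked 1976th and 2251st. With a single library per genotype, there is no replicate spread against which neighbours in this order, such as C3ar1 and Cfp, could be compared.

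**Figure D2:**
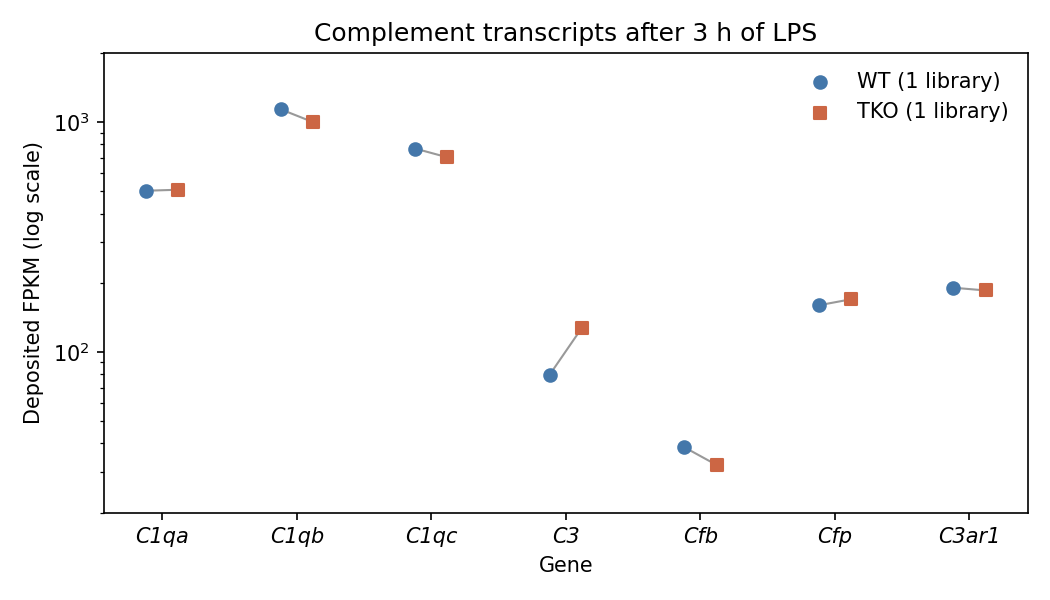
FPKM (vertical axis, log scale) of each complement gene in the WT library (blue circles) and the TKO library (orange squares), joined by a line for each gene. C3 lies at 79.7 FPKM in WT and 127.5 in TKO, and the C1q chains lie highest in both libraries.

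The C1q genes encode the A, B and C chains that assemble into the recognition molecule of the classical pathway. They lie together on the minus strand of chromosome 4 (GRCm38.p6), C1qb at 136880126 to 136886200, C1qc at 136889801 to 136892936 and C1qa at 136895916 to 136898844, each with 3 exons. C1qa, the A chain, had 5757 counts in WT and 5852 in TKO (503.1 and 508.2 FPKM), a ratio of 1.01 (0.973 to 1.05). C1qb, the B chain, had 12770 and 11307 counts (1138 and 1001 FPKM), 1.14-fold lower in TKO (1.11 to 1.17). C1qc, the C chain, had 8623 and 7948 counts (767.5 and 703.0 FPKM), 1.09-fold lower (1.06 to 1.13). The B and C chains were thus slightly lower and the A chain equal within counting error, and the intervals of the A and B chain ratios did not overlap.

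Together the 3 chains gave 27150 counts in WT and 25107 in TKO, which is 0.252% and 0.232% of each library and 1.09-fold lower in TKO (1.07 to 1.11). In the protein the chains occur in equal numbers, but their messages did not. The B chain made up 47.2% of the summed C1q FPKM in WT and 45.3% in TKO, the C chain 31.9% and 31.8%, and the A chain 20.9% and 23.0%. The excess of B chain over A chain message was 2.26-fold in WT and 1.97-fold in TKO.

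Promoter sequences (250 bases before to 50 after the start, RefSeq, GRCm38.p6) were found for 5 of the 7 members, all but C1qa and Cfb. The 2 shown are those of C3, the member that differed most, and C1qb, the most abundant, with capitals marking matches to any of 5 motifs on either strand: C/EBP (TTNNGNAA), PU.1 (GAGGAA), GAS (TTCNNNGAA), and the ISRE and NF-κB motifs.
C3 promoter, chr17:57228087-57228386, minus strand: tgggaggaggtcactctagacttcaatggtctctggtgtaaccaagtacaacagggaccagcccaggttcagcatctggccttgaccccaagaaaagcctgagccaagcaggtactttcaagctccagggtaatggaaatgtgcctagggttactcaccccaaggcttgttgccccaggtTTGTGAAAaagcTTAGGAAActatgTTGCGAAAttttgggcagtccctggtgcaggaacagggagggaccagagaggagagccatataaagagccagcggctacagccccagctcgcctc
C1qb promoter, chr4:136886151-136886450, minus strand: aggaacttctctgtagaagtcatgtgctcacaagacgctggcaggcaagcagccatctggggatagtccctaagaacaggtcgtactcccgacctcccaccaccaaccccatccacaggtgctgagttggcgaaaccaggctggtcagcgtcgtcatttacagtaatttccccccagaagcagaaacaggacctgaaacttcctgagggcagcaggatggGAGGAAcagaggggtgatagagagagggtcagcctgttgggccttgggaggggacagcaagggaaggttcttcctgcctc
The C3 window held 3 C/EBP matches, beginning 70, 58 and 45 bases before the start, the last of which reads as a match on both strands. C/EBP factors are myeloid and acute-phase regulators. At least 1 such match was found in 40.7% of all 32851 promoters, and at least 3 in 3.60%. The C1qb window held 1 match to the PU.1 motif, named for a macrophage lineage factor, which 28.3% of promoters hold. The PU.1 letters were also found in the Cfp and C1qc windows, and the C1qc window also held 1 C/EBP match and 1 NF-κB match (4.51% of promoters). These matches describe letters only, and no binding was measured here.

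C3 is the protein on which all complement pathways converge, cleaved into C3b, which coats targets, and C3a, an inflammatory peptide. The gene (identifier 12266) has 41 exons on chromosome 17, 57203967 to 57228136, minus strand. It had 4449 counts in WT and 7168 in TKO, which is 413.3 and 661.4 CPM and 79.7 and 127.5 FPKM. C3 was thus 1.60-fold higher in TKO (1.54 to 1.66), and 2.52% of measured genes had a log2 ratio above its 0.68. In the authors' deposited table its log2 ratio, computed from FPKM, is also 0.68. Fibroblasts can make C3 too. The summed stromal markers were lower in TKO (397 and 155 CPM), though Pdgfrb and Pdgfra were not 1.5-fold apart. The part of stromal cells in the C3 value was not tested.

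Factor B, the serine protease that joins C3b in the alternative pathway enzyme, did not follow C3. Cfb (identifier 14962, 18 exons, chromosome 17, 34856374 to 34862514, minus strand) had 1151 counts in WT and 970 in TKO (38.5 and 32.3 FPKM), 1.19-fold lower in TKO (1.10 to 1.30). The annotation places another gene, Gm20547, over Cfb on the same strand, so reads of the pair cannot be fully told apart. Properdin, which stabilises that enzyme, is encoded by Cfp (identifier 18636, 9 exons, chromosome X, 20925454 to 20931555, minus strand). Cfp had 2795 and 2987 counts (159.7 and 169.5 FPKM), 1.06-fold higher in TKO (1.01 to 1.12). Within the alternative pathway the proportions of the messages differed: C3 exceeded Cfb 2.07-fold in WT and 3.95-fold in TKO by FPKM, and Cfp exceeded C3 2.00-fold in WT and 1.33-fold in TKO.

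C3ar1 encodes the G protein-coupled receptor for C3a (identifier 12267, 2 exons, chromosome 6, 122847140 to 122856157, minus strand). It had 8881 counts in WT and 8698 in TKO (190.4 and 185.3 FPKM), a ratio of 0.973 (0.944 to 1.00) whose interval included equality. The receptor message exceeded that of C3 itself 2.39-fold in WT and 1.45-fold in TKO by FPKM.

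The other complement genes were few and mostly close to equality. Of a list of 47 further genes, 31 had an entry and 17 were measured, of which the 1.5-fold rule called 1 higher in TKO (Itgax) and 2 lower (Serping1 and Cd59a), against 2.83% and 5.26% of all measured genes. The median log2 ratio of the 17 was −0.04. All 7 members and these 17 genes are plotted together with their counting intervals.

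**Figure D3:**
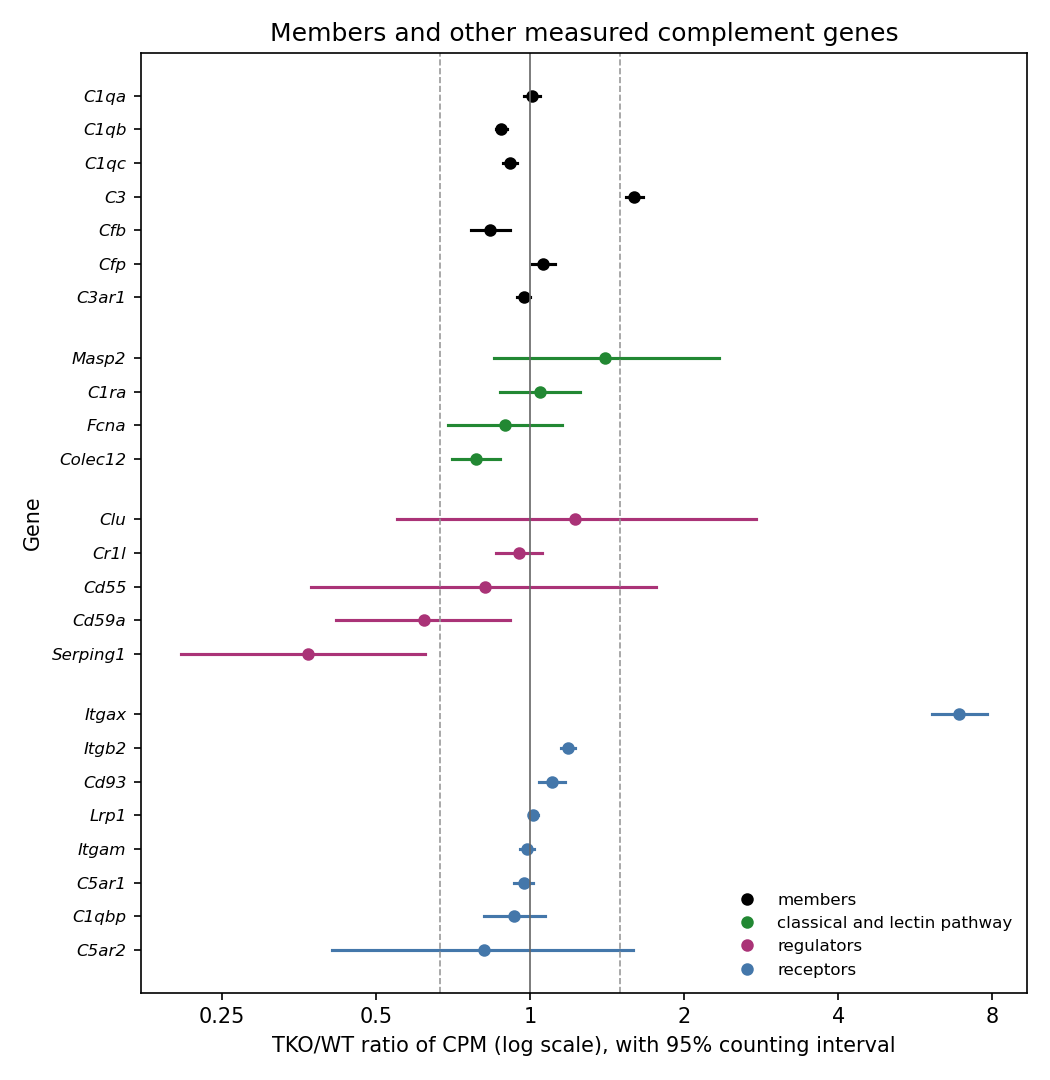
TKO/WT ratio of CPM (horizontal axis, log scale) with its 95% counting interval (bars) for the 7 members and the 17 other measured complement genes, grouped by role. Dashed lines mark 1.5-fold. C3 and Itgax lie right of the upper line, and Serping1 and Cd59a lie left of the lower one.

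Upstream of C3, 4 of 16 classical and lectin pathway genes were measured and 0 were 1.5-fold apart. C1ra, a C1q-associated protease gene, had 244 and 257 counts. C1s1, another such gene, had 10 and 4 counts and did not reach the abundance filter. Masp2, the lectin pathway protease gene, had 29 and 41 counts, and the ficolin gene Fcna 131 and 118. The collectin gene Colec12 had 761 counts in WT and 601 in TKO, a ratio of 0.784 (0.704 to 0.874). C4a and C4b, near-identical copies whose reads cannot be assigned with certainty, had at most 8 counts per library. C2, the classical pathway counterpart of factor B, had 11 and 2 counts, and it was picked out here because of those values. So these cells carried abundant C1q message but little message for C1s1, C2 and C4, components that link C1q to C3.

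Of 8 genes of factor D and the terminal pathway, 4 had an entry, none reached the abundance filter and the highest count was 8 (C8g, 8 and 5 counts). These counts are too low to show a difference at this depth.

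Among regulators, 5 of 13 were measured and 2 were lower in TKO. Serping1, which encodes the C1 inhibitor, had 54 counts in WT and 20 in TKO, a ratio of 0.368 (0.209 to 0.625). Cd59a, an inhibitor of the membrane attack complex, had 72 and 45 counts, a ratio of 0.621 (0.418 to 0.913). Cd55, a brake on the C3-cleaving enzymes, had 17 and 14 counts, too few to show a difference at this depth. Cr1l, the rodent C3b regulator Crry, had 748 and 717 counts, a ratio of 0.952 (0.858 to 1.06). The lower regulators were thus scarce messages, while the more abundant Cr1l was equal within counting error. The summed level of the stromal markers given above was lower in the same library as Serping1 and Cd59a. The part of stromal cells in these differences was not tested.

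Of 10 receptor genes, 8 were measured. Itgam, the alpha chain of complement receptor 3, had 7062 and 7021 counts, a ratio of 0.988 (0.955 to 1.02). Itgb2, the beta chain it shares with complement receptor 4, had 7026 and 8406 counts, 1.19-fold higher in TKO (1.15 to 1.23). Itgax, the alpha chain of complement receptor 4, had 291 and 2019 counts, 6.89-fold higher (6.09 to 7.82). The receptor 4 chain thus differed more than any of the 7 members, while the receptor 3 chain did not differ beyond counting error. C5ar1, the receptor for C5a, had 4440 and 4348 counts, a ratio of 0.973 (0.933 to 1.01), equal to 3 digits to that of C3ar1. Lrp1, an endocytic receptor gene, had 22180 and 22693 counts, a ratio of 1.02 (0.998 to 1.04).

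The members occupy 5 loci, and the 5 measured genes on each side of each locus were examined by start position. Of these 50 neighbours, 5 were lower in TKO by the 1.5-fold rule, 1 at each locus, and 0 higher, against 5.26% and 2.83% of all measured genes, and their median log2 ratio was 0.00. At C3 the adjoining genes went in different directions. Tnfsf9, which encodes the 4-1BB ligand, had 1375 counts in WT and 860 in TKO, a ratio of 0.621 (0.570 to 0.677). Trip10, which starts beyond the 5′ end of C3, had 825 and 1105 counts, a ratio of 1.33 (1.21 to 1.46). Adgre1, the macrophage marker F4/80 and a neighbour farther out on the side of Trip10, had 10003 and 9812 counts, a ratio of 0.974 (0.948 to 1.00). Whether position plays a part in the C3 value was not tested.

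Cfb lies in the major histocompatibility complex. Its first measured neighbours by start position are Nelfe (329 and 362 counts) and Zbtb12 (43 and 29 counts), neither of them 1.5-fold apart. C2 (11 and 2 counts) lies between Cfb and Zbtb12, from 34862602 to 34882100, but did not reach the abundance filter. The noncoding gene 1110038B12Rik, also near Cfb, was lower in TKO, at 182 and 110 counts. Outside these neighbours, some class I genes of the complex differed far more, such as H2-L (log2 ratio 8.49) and H2-Q10 (5.89). Others, such as H2-Q4 (0.70) and H2-T23 (0.56), lay closer to equality. These genes were picked out for their values, and whether the region plays a part in the Cfb value was not tested. The gene closest to Cfp on one side is Syn1, 4.54 kb away (143 and 132 counts), and on the other Elk1 (271 and 266 counts), neither of them 1.5-fold apart. Timp1, a metalloprotease inhibitor gene that lies within the span of Syn1 and 50.7 kb from Cfp, had 525 and 147 counts, a ratio of 0.278 (0.230 to 0.335). Around the C1q genes the adjoining genes were Ephb2 (20 and 19 counts) and Zbtb40 (112 and 158 counts), and the perlecan gene Hspg2 was lower (257 and 135 counts). Around C3ar1 they were Foxj2 (348 and 372 counts) and Necap1 (588 and 497 counts), and the growth factor gene Gdf3 was lower (238 and 111 counts).

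**Figure D4:**
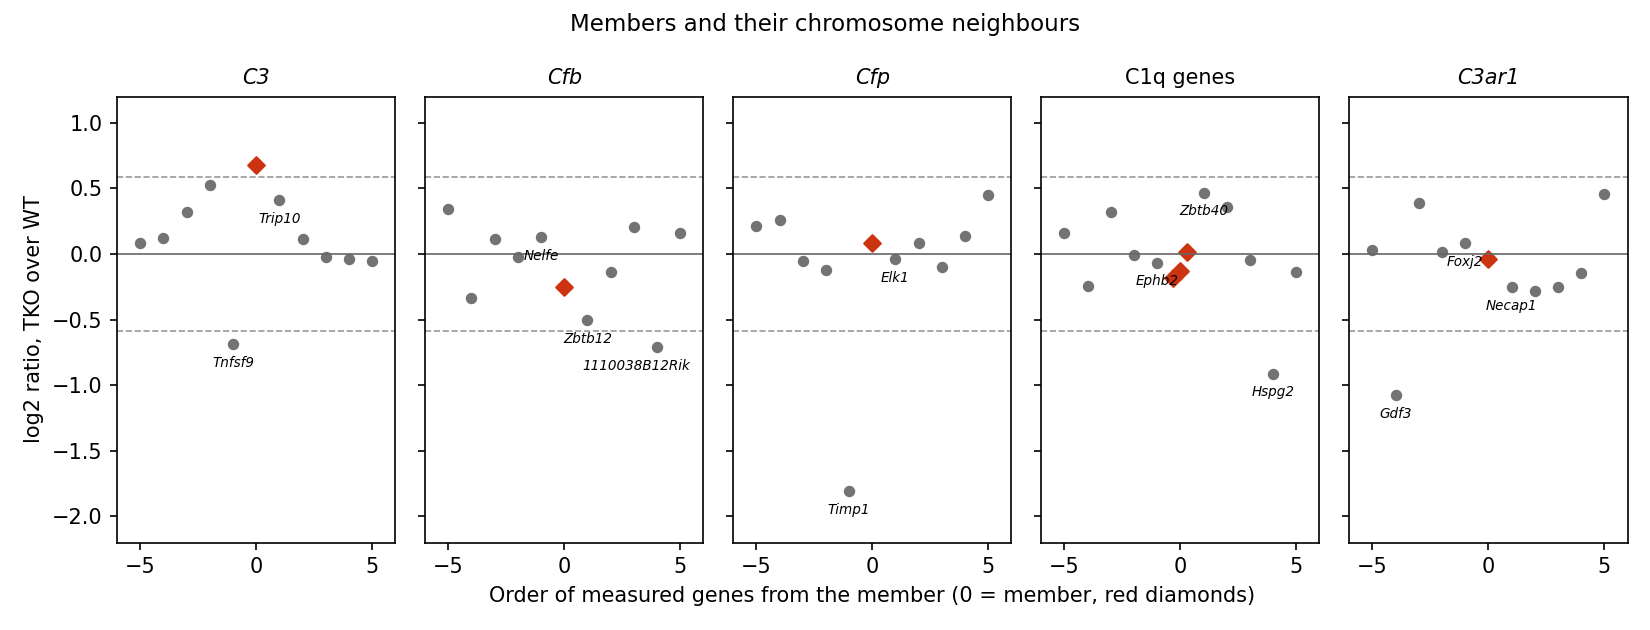
Log2 ratio of TKO over WT (vertical axis) of the members (red diamonds) and of the 5 measured genes on each side (grey points) by their order along the chromosome (horizontal axis), 1 panel per locus. The first gene on each side by start position and those at least 1.5-fold apart are named, and dashed lines mark 1.5-fold. C3 is the only member above the upper line, and 1 neighbour per panel lies below the lower line.

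The genes nearest to each member in their pair of log2 CPM values were also listed, over 2 libraries, so that likeness here means only a similar level and ratio. Nearest to C3 was Fam20c, a secretory pathway kinase gene (4482 and 7019 counts, distance 0.032), followed at a greater distance by Itgal (4983 and 6534 counts, 0.211). The integrin gene Itgav was nearest to C1qb (12774 and 11569 counts), Tpm3 to C1qc (8434 and 8134 counts) and Hnrnpa2b1 to C1qa (5690 and 5834 counts). Ugdh was nearest to Cfb (1172 and 977 counts), Wdr26 to Cfp (2780 and 2965 counts) and Mnda to C3ar1 (8705 and 8843 counts).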

How the data were processed

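Polyadenylated RNA of 2 libraries was analysed from the deposited table of 16219 gene entries. Per the submitters' processing notes, the tools were HISAT2 2.0.4, Bowtie2 2.2.5 and RSEM 1.2.12 and the build mm10, with no role stated. Not given in the sources used here are the annotation and the strandedness. The authors deposited estimated counts per gene, which were rounded to whole numbers here, and FPKM values, in which 0.01 stands for 0. The deposited log2 ratio was computed by the authors from FPKM, and their deposited p-value and adjusted value, treated as a score because it passes 1, were not used. The 1 entry without a symbol (9.29e-06% of WT counts and 9.23e-06% of TKO counts) was left out, and 23 symbols turned into dates were restored from the RefSeq table (GRCm38.p6, the same assembly as mm10), in which 16179 identifiers were found. Each log2 ratio was taken after adding 0.5 to both CPM values, TKO over WT, which makes differences of low genes look smaller. A gene was called when its log2 ratio reached 1.5-fold in size and its 95% counting interval excluded equality. A floor of 3 counts per library, 0.279 CPM in WT and 0.277 CPM in TKO, was noted for zero counts but entered no ratio or call. No p-value was computed, since there is 1 library per genotype. All 7 members are named. Of the other complement genes, the 4 most abundant measured in each role and all called are named, and C1s1, C2, C4a, C4b and C8g besides. Of the neighbours, the adjoining, all called and Adgre1 are named, and H2-L, H2-Q10, H2-Q4 and H2-T23 besides. Of the cell markers, the 2 most abundant macrophage ones and all fibroblast and stromal ones are named. From the other marker lists, all called, those at 0 counts in a library and Xcr1 are named. A gene of the complement list is not reported here and was left out of its counts. The members and lists were chosen with earlier results of these data known. Alternatives were scaling (edgeR 4.0.16 TMM, DESeq2 1.42.0 size factors), FPKM, the pseudocount, rounding, the abundance filter and a 2-fold rule.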

Additional observations from a re-analysis of the deposited data

How the results depend on the processing

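No paired analysis was possible because each genotype had 1 library, and no library could be left out. C3 stayed between 0.68 and 0.73 on the log2 scale under all 9 alternatives. The abundance filters, the 2-fold rule and the unrounded counts could not change this ratio, and TMM scaling moved it most. C3 was called higher in all but the 2-fold rule, under which 0 members were. TMM scaling moved the median of all measured genes from −0.04 to 0.00 and gave −0.14 for C1qb, −0.0792 for C1qc and 0.00833 for C3ar1, which was below 0 under the other 8, so the sign of C3ar1 is not read. The summed C1q log2 ratio was −0.0745 with TMM and −0.0873 with DESeq2 size factors. The 2 lower genes among the other complement genes became 1 with TMM, with a pseudocount of 2 CPM and with the 2-fold rule, 0 at a mean of at least 10 CPM, since both are scarce, and 3 without the abundance filter, which adds C2. Among the neighbours, 1 was higher by FPKM alone, where no interval is required, and 2 were lower with the 2-fold rule. Over all measured genes, 330 were higher and 613 lower by the main rule. The counts were 524 and 920 by FPKM, 168 and 247 at a mean of at least 10 CPM, and 119 and 196 with the 2-fold rule, and 406 were lower with a pseudocount of 2 CPM.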
